A study of Mus musculus with 8 samples.

Results

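The interferon response genes studied here are 36 named genes that interferons switch on in most cell types. They were chosen by name, and their regions are the accessible regions that overlapped the gene body, or the 5 kb on either side, in any of 8 ATAC-seq libraries. All 36 were found in the RefSeq gene table of GRCm38.p6. Together they held 155 of the 175276 regions of the series, and 101 of the 95899 regions that remained when every library was reduced to its strongest 65811 peaks (the equal-number lists). In those lists 34 of the 36 genes held a region, and only Oas1a and Ifi44 held none.

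ATAC-seq marks open chromatin by letting a transposase cut DNA where it is exposed. The cells were naive CD4 T cells from mouse spleen, sorted and then activated for 48 h with antibodies against CD3 and CD28. All of them received 20 ng/mL TGF-β, a culture that turns such cells into induced regulatory T cells. The 4 groups, of 2 libraries each, were control cells with TGF-β only, cDKO cells with TGF-β only, control cells that also received 100 U of IL-2, and cDKO cells that also received IL-2. Here cDKO stands for conditional double knockout of Tet1 and Tet3, the genes of 2 enzymes that act on methylated cytosine by oxidation, and the control is tagged WT. The sources used here do not give the Cre driver, the deleted exons, the age of the mice or the number of animals. A permutation p-value therefore covers only the variation among these libraries. Each library used 90000 cells. The question was how losing both enzymes alters open chromatin in this differentiation, and whether IL-2 alters that.

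Type I interferon binds its receptor, which activates Janus kinases and leads to a complex of transcription factors that contains STAT2 and IRF9. That complex binds a repeated GAAA element near the start of target genes. The genes it switches on include sensors of viral RNA (Ddx58, which encodes RIG-I, Ifih1, which encodes MDA5, and Dhx58), the factors that renew the signal (Irf7, Irf9, Stat2), enzymes and traps that block viruses (the Ifit, Oas and Mx families, Rsad2, Bst2, Eif2ak2, Samd9l), guanylate-binding proteins (Gbp2, Gbp3, Gbp7) and brakes such as Usp18, which removes ISG15 from proteins. In a T cell the same signal shapes proliferation and survival. Neither interferon nor any transcript was measured here.

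The deposited lists held between 65811 peaks (replicate 2 of control plus IL-2) and 145979 peaks (replicate 1 of control without IL-2). The lists do not give reads per library, so depth is unknown. Markers of T cells had a region at 13 of 13 genes in every library. B cell markers had one at 4 or 5 of 10 genes, with Ms4a1 and Pax5 at 0 and Cd79a, Ebf1, Blk and Cr2 with a region in all 8 libraries. CD8 and NK cell markers had one at 4 to 6 of 11 genes in control and at 6 or 7 in cDKO, with Klrb1c, Ncr1, Klrd1 and Klra8 at 0. Among the same markers Cd8a had a region in 3 of 4 cDKO libraries and in 0 of 4 control libraries, while Cd8b1, Gzmb, Prf1 and Eomes had one in all 8. The part of such cells in the results was not tested. Myeloid and dendritic markers had one at 7 of 13 genes in control and at 6 or 7 in cDKO, with Csf1r, Lyz2 and Siglech at 0 and Itgam, Spi1 and Flt3 with a region in all 8 libraries. Tet1 held 5 to 8 regions in either genotype and Tet3 held 10 to 12, and since the deleted exons are not given this does not check the labels.

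The element of the interferon pathway was searched as GAAA, any 2 bases and GAAA (on the other strand TTTC, any 2 bases and TTTC), with overlapping matches counted, in RefSeq promoter windows, which run from 250 bases before to 50 after a gene's start. It occurred in 14 of the 27 members that have a window (51.9%) and in 1079 of 27025 genes in all (3.99%). The table has no window for Mx1, Mx2, Oas2, Usp18, Dhx58, Rtp4, Zbp1, Parp9 and Parp14. Shown first are the 250 bases before the start of 3 members with the element whose start region or nearby region differed between groups, with the element in capitals, 5′ to 3′ on the strand of the gene. Isg15 lies at chr4:156200819-156201068 on the minus strand and holds 3 overlapping matches, at positions -78 to -57 from the start. Rsad2 lies at chr12:26456453-26456702 on the minus strand, with the match at -120 to -111. Gbp2 lies at chr3:142620413-142620662 on the plus strand, with the match at -59 to -50. None of these stretches lies within a gene body of the table.
Isg15: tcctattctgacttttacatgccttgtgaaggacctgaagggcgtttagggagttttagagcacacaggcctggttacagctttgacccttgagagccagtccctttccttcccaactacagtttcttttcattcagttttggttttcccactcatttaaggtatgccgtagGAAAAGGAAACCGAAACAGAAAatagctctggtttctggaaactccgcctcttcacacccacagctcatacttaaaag
Rsad2: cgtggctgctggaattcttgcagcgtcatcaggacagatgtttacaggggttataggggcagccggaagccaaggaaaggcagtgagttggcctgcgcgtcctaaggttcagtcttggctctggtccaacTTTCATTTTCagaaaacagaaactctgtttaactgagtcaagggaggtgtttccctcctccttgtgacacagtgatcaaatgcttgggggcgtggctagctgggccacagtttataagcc
Gbp2: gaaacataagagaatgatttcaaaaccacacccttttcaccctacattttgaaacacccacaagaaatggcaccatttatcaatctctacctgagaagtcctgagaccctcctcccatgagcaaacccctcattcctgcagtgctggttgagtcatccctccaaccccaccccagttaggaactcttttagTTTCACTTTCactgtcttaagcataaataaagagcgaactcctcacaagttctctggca

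For 4 further members only the match and 10 bases on each side are shown, because the match is what they share. The match of Ifit1 starts at position -104 (chr19:34640785-34640794), the first of 2. That of Ifit3 starts at -156 (chr19:34583373-34583382), again the first of 2. Oas3 has one at -75 (chr5:120777725-120777734) and Gbp7 one at -53 (chr3:142530283-142530292). The matches of Ifit1, Ifit3 and Gbp7 have the TTTC form on the gene's strand, and that of Oas3 has the GAAA form.
Ifit1: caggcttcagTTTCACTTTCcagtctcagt
Ifit3: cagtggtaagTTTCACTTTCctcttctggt
Oas3: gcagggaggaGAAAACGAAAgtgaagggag
Gbp7: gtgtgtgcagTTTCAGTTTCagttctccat

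At 13 of the 14 members with the element, it lay under a region found in at least 1 equal-number list. The distance from a peak's summit to the match varied by gene. In Gbp7 the median distance over the libraries was 11.5 bp, in Gbp2 19.5 bp, and in Ifit3 20 bp from the match printed. In Rsad2 it was 93 bp. In Gbp3 the summits lay 526 to 660 bp from the first match. A match is a description of letters and does not show that a factor was bound.

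Start regions, those that overlap a promoter window of the gene, were found in the equal-number lists for 24 members. The strength of a region in a library is given as its rank by the authors' −log10 p, where rank 1 is the strongest peak. Stat2 had the strongest start, with ranks from 308 to 1269 in the 8 libraries, followed by Irf9 with 1661 to 5414 and Ifit2 with 2575 to 5869. The ranges of Irf9 and Ifit2 overlapped. Ifit1, whose region also overlaps the start of Ifit1bl2, ranked from 3761 to 10468. At the other end, the start of Isg15, the ubiquitin-like modifier, was in 5 of 8 lists, with ranks no better than 42123. The start of Ifit3 was in 6 lists with ranks no better than 32368, that of Oas3 was in 1 list at rank 62279, and those of Oas1a and Ifi44 were in none. Start regions of genes of 1 pathway thus differed widely in rank. Of the 24 start regions 20 were in all 8 equal-number lists (83.3%), close to the 83.7% of all 11318 start regions.

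**Figure D1:**
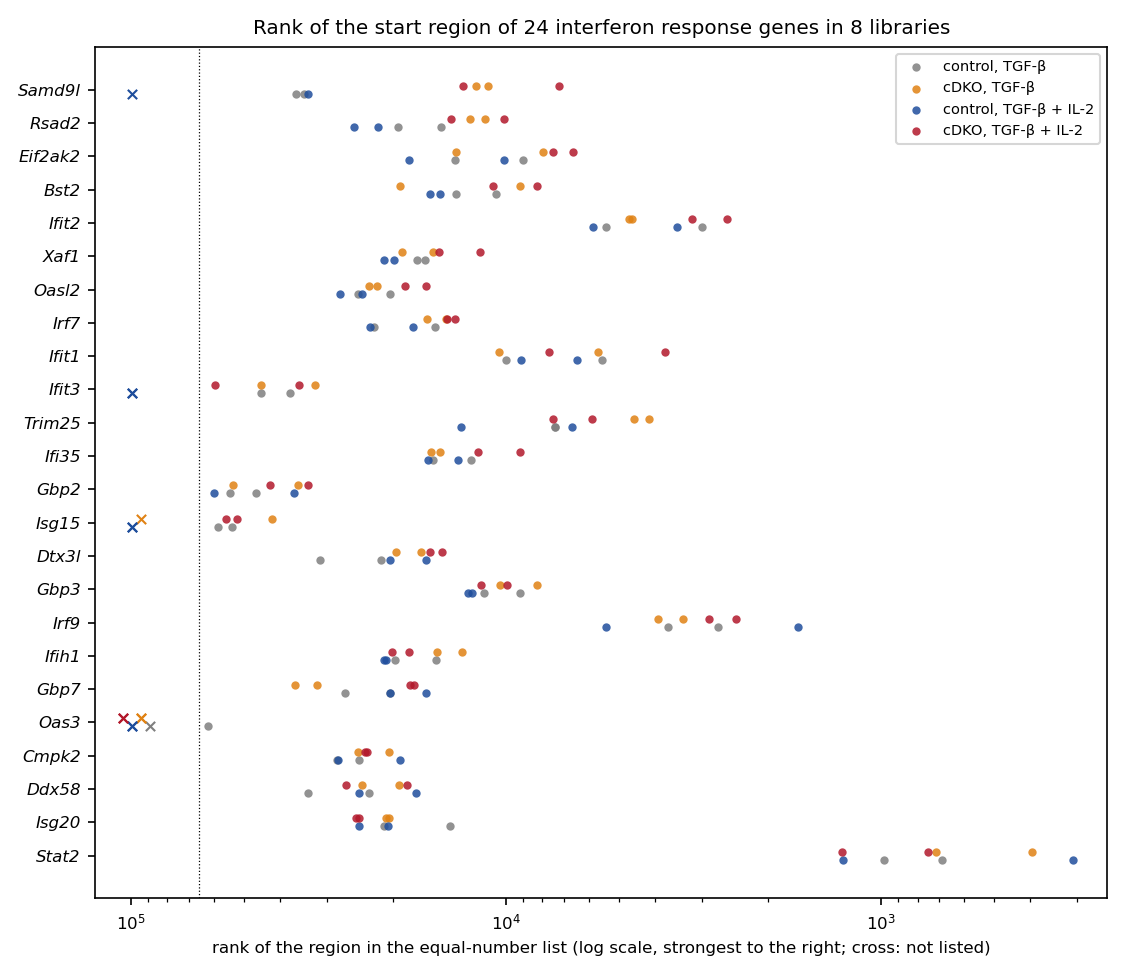
Rank of the start region of each of 24 members (y axis) in the 8 libraries, on a log scale with the strongest to the right. Points are libraries, colours are the 4 groups, crosses mark libraries whose equal-number list lacks the region, and genes run from the largest lead of cDKO with IL-2 at the top. The Stat2 points lie between 308 and 1269, and those of Samd9l between 7219 and 36262 with 1 library unlisted.

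Regions were compared between groups in 3 ways. By listing, a region counted as higher in a group of libraries if all of them listed it and none of the opposing libraries did, and as lower in the reverse case. Among regions in all 8 lists, ranks were called separated when every library of one side ranked ahead of every library of the other. The same order was read at start regions with an unlisted library placed last, a rule added after the data were seen. The size of a difference is the mean log2 rank of the second side minus that of the first, so 1 unit means that the rank number was 2 times smaller, hence stronger, on the first side.

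Few member regions were called between genotypes, and no single one passed an adjusted test. All 4 cDKO libraries ranked ahead of all 4 control libraries at the starts of Rsad2 and Samd9l. They also did so at an end of Usp18 and Mx1 when peaks were ranked by −log10 p, but not when ranked by fold. They did so at a region of Gbp7 as well. By the listing rule 0 of 101 member regions were higher in cDKO (0.706% of all regions) and 3 were lower (1.12% of all regions). By rank 4 of the 55 member regions in all 8 lists were separated with cDKO ahead (6.15% of all regions) and 0 with cDKO behind (5.72% of all). The rank difference was above 0 at 40 of these 55 regions (72.7%), against 54.3% of all 40694. Its median was 0.21 for the members and 0.04 for all.

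Rsad2 encodes viperin, an enzyme that makes a chain-terminating nucleotide. Its start (chr12:26456087-26456748) had ranks 14893 and 19374 in control, 12462 and 11382 in cDKO, 21923 and 25480 in control plus IL-2, and 13990 and 10114 in cDKO plus IL-2. All 4 cDKO libraries ranked ahead of all 4 control libraries, by 0.75. The fold over background, the authors' value, was 7.84 to 13.8 in control and 14.1 to 15.7 in cDKO. These ranges did not overlap either.

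At the end of Usp18 with the lower coordinate (chr6:121245591-121246085) ranks were 24084 and 21962 in control, 12010 and 19620 in cDKO, 23777 and 20249 in control plus IL-2, and 9910 and 12292 in cDKO plus IL-2. The cDKO libraries led by 0.79. At the end of Mx1 with the higher coordinate (chr16:97462627-97463484) ranks were 34209 and 28599 in control, 21125 and 21763 in cDKO, 28151 and 26571 in control plus IL-2, and 14750 and 15012 in cDKO plus IL-2. Here too no control library reached a cDKO library, and the lead was 0.71. The fold over background at Usp18 was 7.24 to 8.78 in control and 9.06 to 13.1 in cDKO. At Mx1 it was 8.01 to 10.5 in control and 11 to 13.4 in cDKO. These fold values did not overlap, but the ranks by fold within each list did not separate. Mx1 encodes a dynamin-like antiviral GTPase and is listed as a transcribed pseudogene in the RefSeq table. The table gives no strand for either gene, so these ends are named by coordinate.

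The fourth region lay inside Gbp7 (chr3:142546719-142547197), which encodes a guanylate-binding protein. Its ranks were 23750 and 23752 in control, 21188 and 13220 in cDKO, 28804 and 45684 in control plus IL-2, and 22043 and 21422 in cDKO plus IL-2. The nearest libraries of the genotypes were 22043 and 23750, so the gap was small. Each of the 4 regions had the smallest p that 4 against 4 libraries allow (exact permutation test, two-sided, p = 0.0286, Benjamini-Hochberg adjusted p = 0.241 over 40694 regions). None of the 4 passed the adjustment, and no region of the series did in this test. With 70 relabellings an adjusted p can pass only if a large share of all regions separates. The failure therefore says little about a single region. A fit of log2 rank with limma, added after the data were seen, called 0 of 55 member regions ahead in cDKO (1.58% of all regions) and 0 behind (2.2% of all). The adjusted p from limma was 0.0696 for Mx1, 0.0821 for Rsad2, 0.0863 for Usp18 and 0.179 for Gbp7. At an unadjusted p under 0.05 limma had 7 member regions ahead (12.7%, against 10.9% of all) and 1 behind (1.82%, against 10.2% of all). With ranks by fold, 2 of the 4 remained, Rsad2 and Gbp7.

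**Figure D2:**
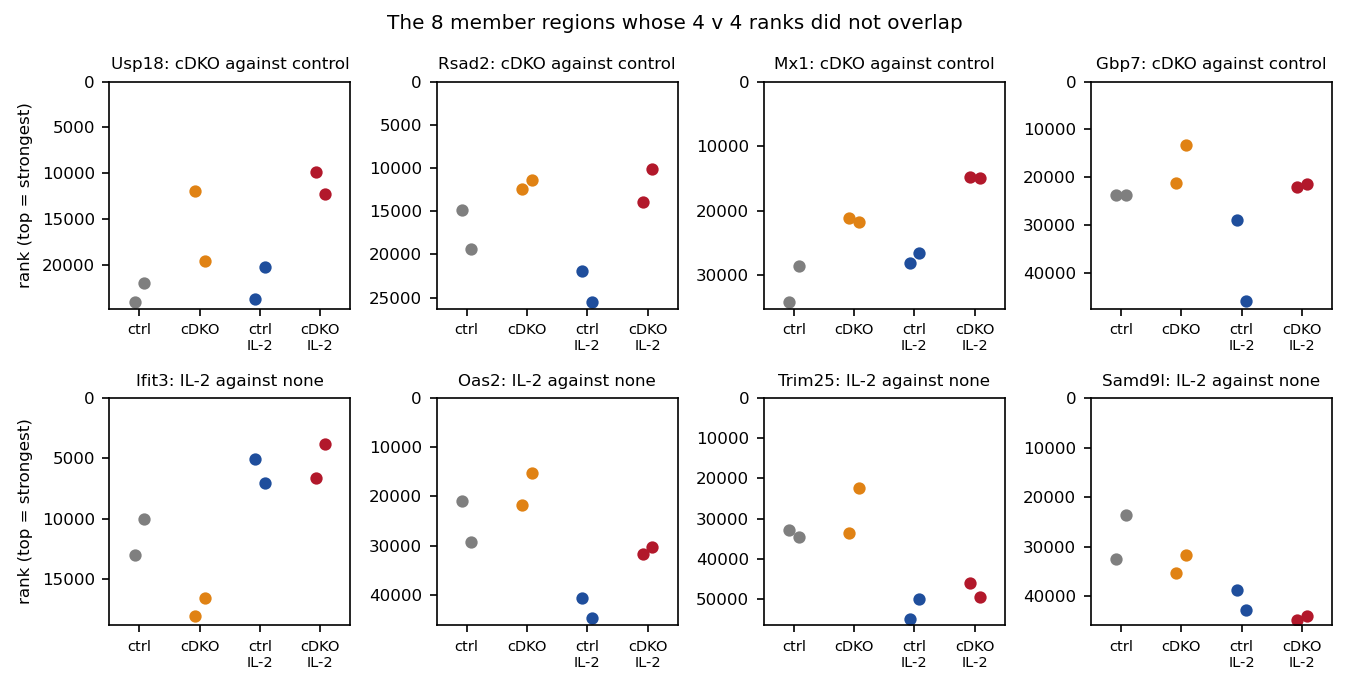
Rank (y axis, strongest at the top) of the 8 member regions whose ranks did not overlap between 4 and 4 libraries, with 1 point per library and groups on the x axis. The upper row shows the 4 regions with cDKO ahead, such as Rsad2 at 10114 to 13990 against 14893 to 25480 in control. The lower row shows the regions that differed with IL-2.

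Samd9l had the largest genotype difference among the member starts, and a region inside the same gene went the other way. SAMD9L restrains poxviruses and cell growth. Its start (chr6:3399363-3399855) ranked 36262 and 34465 in control, 12020 and 11172 in cDKO, 33804 and unlisted in control plus IL-2, and 7219 and 12998 in cDKO plus IL-2. The fold over background was 9.1 and 6.98 in control, 14.4 and 13.9 in cDKO, 7.93 in the control plus IL-2 library that listed it, and 16.6 and 13.7 in cDKO plus IL-2. All cDKO libraries were ahead of all control libraries, by 1.95 over 8 libraries with the unlisted one placed last. The lead was 1.61 without IL-2 and 2.28 with it. This region was singled out after its values were seen, and being unlisted in 1 library it is not among the 55.

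About 3 kb downstream of that start, a region inside Samd9l (chr6:3395768-3396420) was listed in all 4 control libraries, at ranks 53959 and 39319 without IL-2 and 28546 and 23824 with it. It was in no equal-number list of cDKO. Only 1 deposited cDKO list held it, that of cDKO plus IL-2 replicate 2, at rank 90560. The start was thus stronger and the inner region weaker in cDKO. Further along the gene, a region at chr6:3384803-3385240 was listed in all 8 libraries and did not separate the genotypes. Samd9l and Usp18 are on chromosome 6, as is the targeted gene Tet3, at distances of 80 and 37.8 Mb from it. On that chromosome 1.6% of regions were called higher and 1.34% lower in cDKO by listing, against 0.654% and 1.11% on the others. By rank, among regions in all 8 lists, cDKO was ahead at 7.47% and behind at 5.7%, against 6.08% and 5.72% on the others. At start regions the shares were 5.84% ahead and 2% behind, against 5.07% and 2.74%. Within 1 Mb of Samd9l, 2 of 22 other regions had cDKO ahead and 1 behind. Within 1 Mb of Usp18, 10 of 104 had cDKO ahead (9.62%, against 4.94% of all regions) and 9 behind. Whether sharing a chromosome with the targeted gene plays a part was not tested. The 250 bases before the start of Samd9l, at chr6:3399572-3399821 on the minus strand, are shown because this start differed most. They hold no match to the element, so nothing is in capitals.
Samd9l: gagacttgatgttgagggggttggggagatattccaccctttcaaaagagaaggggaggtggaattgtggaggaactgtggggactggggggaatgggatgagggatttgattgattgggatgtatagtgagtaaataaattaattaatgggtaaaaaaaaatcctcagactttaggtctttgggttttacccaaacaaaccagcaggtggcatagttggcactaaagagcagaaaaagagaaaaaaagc

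**Figure D3:**
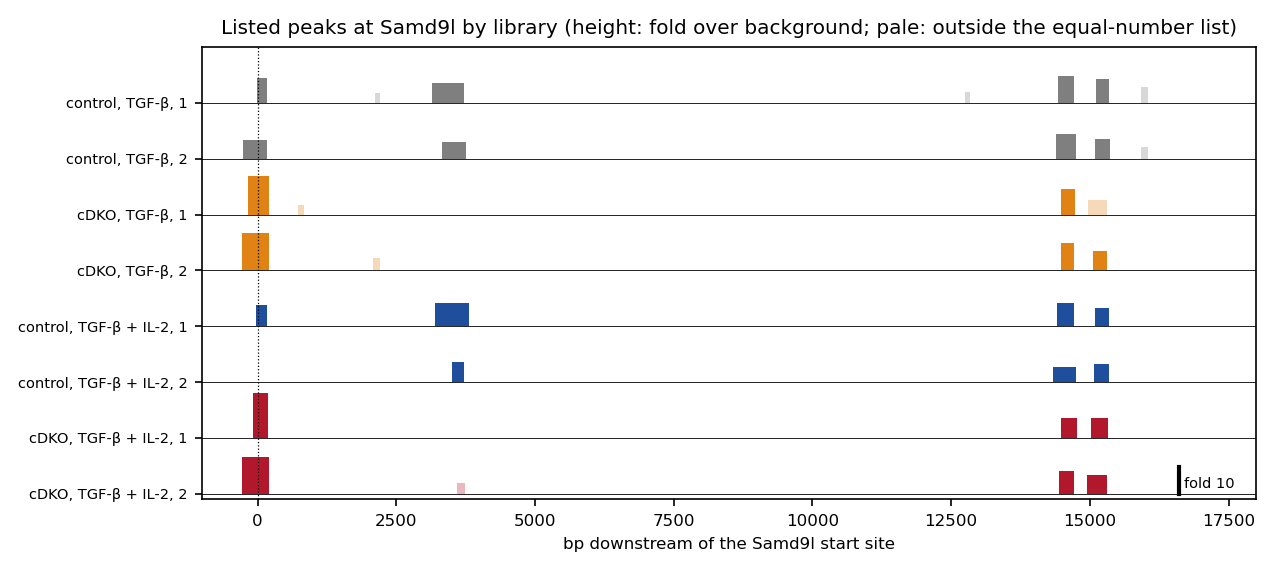
Peaks listed at Samd9l in each library (rows), by distance downstream of the start site in bp (x axis); block height is the authors' fold over background and pale blocks fall outside the equal-number list. The block at the start is tallest in the 4 cDKO libraries (13.7 to 16.6), and the block about 3 kb downstream is dark only in the 4 control libraries.

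The other 2 regions called lower in cDKO lay inside Rtp4 and Oasl2. Rtp4 encodes a chaperone of membrane receptors that interferon induces. Its region (chr16:23546867-23547311) ranked 36352 and 52914 in control and 47902 and 62818 in control plus IL-2, and was in no cDKO list. Oasl2 encodes a 2′-5′-oligoadenylate synthetase-like protein. Its region near the end with the higher coordinate (chr5:114911657-114912003) ranked 26611 and 65159 in control and 53514 and 32166 in control plus IL-2, and was also in no equal-number cDKO list. Below rank 65811 the deposited cDKO lists held the Rtp4 region in 3 of 4 libraries and the Oasl2 region in all 4, so with deposited lists neither was called, nor was that of Samd9l. At Oasl2 the peak was thus ranked lower in cDKO, not missing. Among regions in exactly 4 lists, 3 of 5 member regions were lower in cDKO (17.4% of all such regions) and 0 were higher (11% of all). None of the 3 was a start region, and the start of Oasl2 did not separate the genotypes over 8 libraries, at 20381 to 27720 in control and 16343 to 23184 in cDKO.

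Split by arm and ranked by −log10 p, more member starts had cDKO ahead with IL-2 than without it. By fold the 2 counts were close, but the shares of all starts were not. It was 6 of 22 with IL-2 (27.3%, against 10.6% of all) and 5 of 22 without (22.7%, against 20.2% of all). No member region passed a test of the difference between the arms. With IL-2, both cDKO libraries were ahead of both control libraries at 14 of 24 member starts (58.3%), against 18.7% of all 11318 starts, and behind at 1 (Isg20), against 15.8% of all. The median difference was 0.40 for the members and 0.00 for all. Without IL-2, cDKO was ahead at 5 of 24 (20.8%), against 25.6% of all starts, and behind at 1 (Gbp7), against 13.1% of all. Over both arms cDKO was ahead at 2, Rsad2 and Samd9l (8.33%, against 5.11% of all), and behind at 0 (2.7% of all). The difference between the arms was fitted with limma as an interaction of genotype and IL-2. None of the 55 member regions in all 8 lists passed in either direction (0% of all 40694 regions passed), 20 starts among them, and the smallest adjusted p was 0.997. The starts of Samd9l, Ifit3, Isg15 and Oas3 were not in all 8 lists, so this fit did not cover them. At an unadjusted p under 0.05, 1 member region was higher and 1 lower, neither of them a start. The median difference between the arms was 0.31 over the 20 member starts, above 0 at 14, and -0.13 over all 9474 starts in all 8 lists.

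The 14 were Samd9l, Rsad2, Eif2ak2, Bst2, Ifit2, Xaf1, Oasl2, Irf7, Ifit3, Ifi35, Isg15, Dtx3l, Gbp3 and Ifih1. Among them are effectors, sensors and a transcription factor. Eif2ak2, which encodes the RNA-activated kinase PKR, had start ranks of 18163 and 10144 in control plus IL-2 and 7481 and 6627 in cDKO plus IL-2, a lead of 0.95. Without IL-2 the ranks were 9005 and 13694 in control and 7986 and 13560 in cDKO. Those ranges overlapped.

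Bst2 encodes tetherin, which holds budding virus on the cell. Its start ranked 15991 and 15003 in control plus IL-2 and 8267 and 10825 in cDKO plus IL-2, a lead of 0.71. Without IL-2 the cDKO libraries, at 9195 and 19149, lay on both sides of the controls, at 10632 and 13606. Bst2 was also in the marker list of myeloid and dendritic cells.

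Ifit2, which encodes an RNA-binding antiviral protein, had start ranks of 3493 and 5869 in control plus IL-2 and 3195 and 2575 in cDKO plus IL-2. The lead was 0.66. Without IL-2 the ranks of 4623 and 4713 in cDKO lay between the control values of 2996 and 5412. Ifit1 did not separate in either arm, with 5551 and 10028 in control, 5685 and 10468 in cDKO, 6489 and 9137 in control plus IL-2 and 7697 and 3761 in cDKO plus IL-2.

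Xaf1, an interferon-induced promoter of cell death, had start ranks of 21122 and 19850 in control plus IL-2 and 15121 and 11727 in cDKO plus IL-2. Oasl2 ranked 24211 and 27720 against 16343 and 18595. The transcription factor gene Irf7, which sustains interferon production, ranked 23018 and 17704 against 14387 and 13657. At all 3 the cDKO libraries with IL-2 were ahead, by 0.62, 0.57 and 0.53. Without IL-2 none of the 3 separated, for example Irf7 with 15450 and 22427 in control and 16201 and 14439 in cDKO, and Oasl2 with 20381 and 24851 in control and 23184 and 22062 in cDKO.

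For 2 weak starts the difference was one of listing. The start of Isg15 (chr4:156200728-156200926), over the 3 matches printed above, ranked 55888 and 52119 in cDKO plus IL-2 and was in neither control list with IL-2. Without IL-2 it was listed in both controls, at 53819 and 58666, and in 1 cDKO library, at 42123. The start of Ifit3 (chr19:34583231-34583495) ranked 35746 and 59563 in cDKO plus IL-2 and was in neither control list with IL-2, while all 4 libraries without IL-2 listed it at 32368 to 45097. In the deposited lists replicate 1 of control plus IL-2 held both regions at lower rank, and replicate 2, the shortest list, held neither. By listing, 5 of 101 member regions were higher in cDKO with IL-2 (4.95%, against 3.61% of all) and 5 were lower (4.95%, against 3.97% of all). Without IL-2, 0 were higher (3.86% of all) and 4 were lower (3.96%, against 4.19% of all).

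The other 3 higher with IL-2 were a region inside Gbp2 (chr3:142621236-142621458), one 1335 bp outside Oas3 (chr5:120779019-120779690) and one 2192 bp outside Dhx58 (chr11:100692212-100692692) that overlaps the start of Zfp385c. The lower ones were the regions of Samd9l, Oasl2 and Rtp4 described above, one inside Ifih1 (chr2:62635023-62635538), which control plus IL-2 listed at 55902 and 47350, and one inside Parp9 (chr16:35952507-35952945). The Parp9 region ranked 26805 and 27087 in control, 49032 and unlisted in cDKO, 40763 and 58642 in control plus IL-2, and unlisted in both cDKO plus IL-2 libraries. It was thus weaker in every cDKO library than in the controls without IL-2. The fourth region lower without IL-2, after those of Samd9l, Oasl2 and Rtp4, lay 3044 bp outside Rsad2 (chr12:26439428-26439699), at ranks 44128 and 40872 in control and in neither cDKO list.

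**Figure D4:**
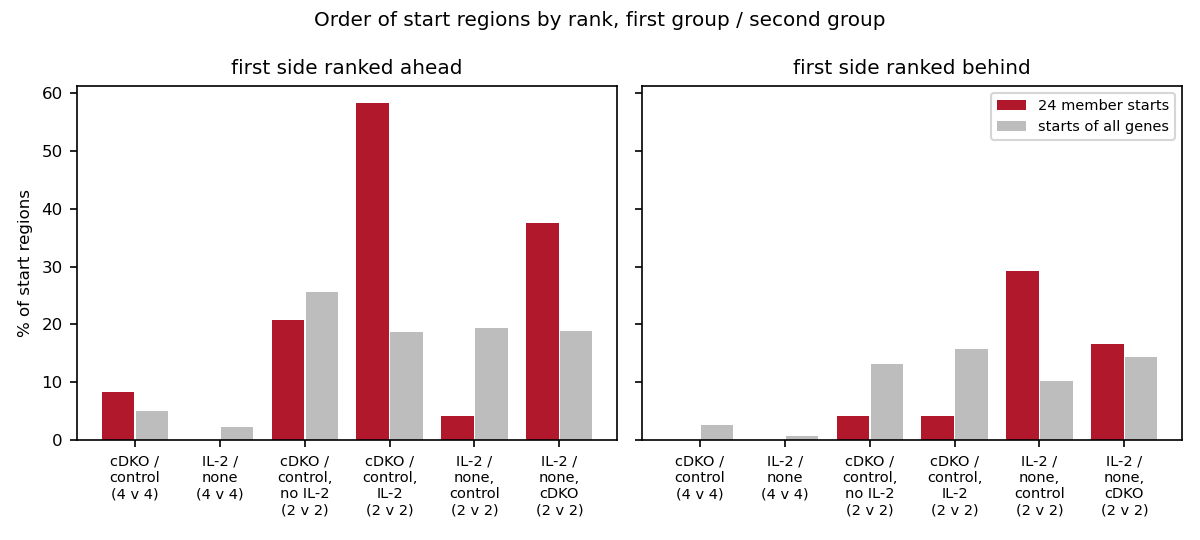
Percent of start regions (y axis) at which every library of the first group ranked ahead of (left) or behind (right) every library of the second, for 6 comparisons; red bars are the 24 member starts and grey bars all 11318. With IL-2, cDKO was ahead of control at 58.3% of member starts and 18.7% of all starts.

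Members with the element and members without it shared the lead of cDKO with IL-2. It was seen at 7 of 13 starts with the element and at 7 of 11 without. Starts of other genes with the element did not show it. Of 360 such starts cDKO was ahead at 18.6% and behind at 14.7%, near the shares of all starts. Away from starts, 15 of 73 member regions had cDKO ahead with IL-2 (20.5%, against 18.1% of 84581 regions) and 12 had it behind (16.4%, against 16.5% of all). The lead was thus counted at starts with a promoter window, and the remaining member regions together were close to background. Those remaining regions include gene ends of the 9 members without a window, so starts of these genes may be among them. At the ends of Usp18 and Mx1 described above cDKO was ahead with IL-2, while at those of Mx2 and Zbp1 the genotypes overlapped.

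The lead depended on the measure of strength. Ranked by the authors' fold over background instead of −log10 p, cDKO with IL-2 was ahead at 6 of 22 member starts (27.3%), against 10.6% of all, and behind at 1 (17.3% of all). By fold without IL-2 it was ahead at 5 of 22 (22.7%), against 20.2% of all, and behind at 1 (8.82% of all). By −log10 p and without replicate 2 of control plus IL-2, whose list was the shortest, cDKO with IL-2 was ahead at 18 of 24 (75%). It was behind at 2 (8.33%), against 42.5% and 25.5% of all starts. Without replicate 1 of that group it was ahead at 16 (66.7%) and behind at 5 (20.8%), against 29.4% and 44.8%. Without chromosome 6 it was ahead at 13 of 23 (56.5%) and behind at 1 (4.35%), against 18.9% and 16% of all.

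Relative to its mean log2 rank over the 8 libraries, each start was ahead or behind in a given library. The median lead of the member starts minus that of all starts was 0.22 and -0.02 in control, 0.24 and 0.02 in cDKO, -0.14 and -0.36 in control plus IL-2, and 0.15 and 0.21 in cDKO plus IL-2. By fold the values were 0.11 and -0.05, 0.12 and 0.06, -0.09 and -0.31, and 0.10 and 0.18 in the same order. Both control libraries with IL-2 were the lowest of the 8 on either scale. The lowest, replicate 2, was also the library with the fewest peaks, and the part of list length in this was not tested. Without IL-2 and by −log10 p the replicates of each genotype lay further apart than the genotypes did.

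**Figure D5:**
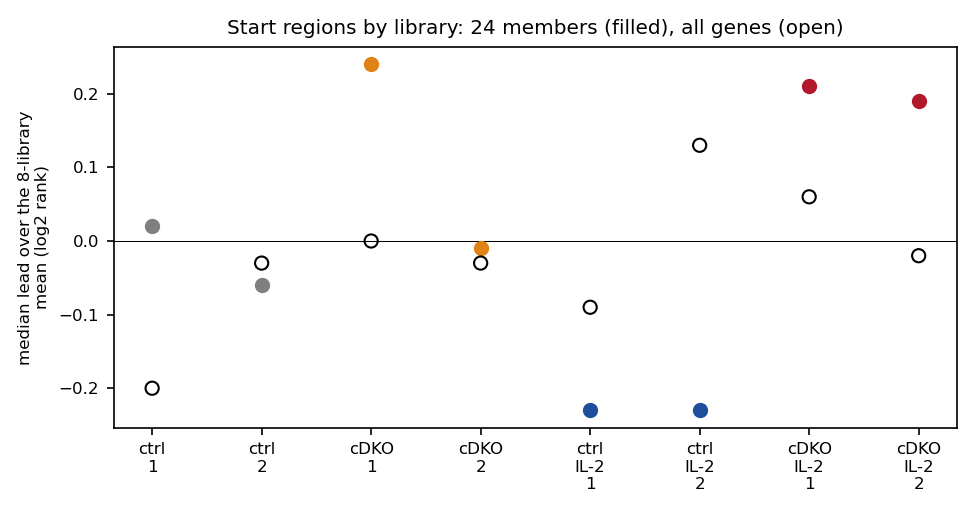
Median lead of start regions over their own 8-library mean, in log2 rank (y axis, above 0 is stronger), for each library. Filled points are the 24 member starts and open points all 11318; the members lie at -0.23 in both control libraries with IL-2 and at 0.21 and 0.19 in cDKO with IL-2.

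IL-2 itself, over both genotypes, separated few member regions. By listing 0 of 101 were higher with IL-2 (0.348% of all regions) and 1 was lower (0.229% of all). That region lay 3829 bp outside Usp18 (chr6:121241895-121242077) and ranked 56157 and 39378 in control and 62311 and 52205 in cDKO. It was in no equal-number list with IL-2. By rank 1 of 55 was ahead with IL-2 (2.77% of all) and 3 were behind (3.01% of all). At the member starts 0 of 24 were ahead with IL-2 (2.3% of all) and 0 behind (0.813% of all).

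The region ahead with IL-2 lay near the end of Ifit3 with the higher coordinate (chr19:34587789-34588595). It ranked 13007 and 10009 in control, 18112 and 16556 in cDKO, 5075 and 7043 in control plus IL-2, and 6636 and 3833 in cDKO plus IL-2. All libraries with IL-2 were ahead, by 1.36, while the start of the same gene was unlisted in control plus IL-2. The ends of Ifit3 thus differed in opposite directions in control cells.

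The 3 regions behind with IL-2 lay inside Oas2, outside Trim25 and inside Samd9l. Oas2 encodes an oligoadenylate synthetase that activates RNase L. Its region (chr5:120742091-120742465) ranked 20927 and 29352 in control, 21839 and 15157 in cDKO, 40565 and 44649 in control plus IL-2, and 31655 and 30230 in cDKO plus IL-2. The difference was -0.77, and the closest libraries were 29352 and 30230.

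Trim25 encodes a ubiquitin ligase that acts on RIG-I. A region 2176 bp outside it (chr11:89022470-89022767) ranked 22455 to 34441 without IL-2 and 46009 to 54800 with it, a difference of -0.72. The Samd9l region at chr6:3384803-3385240 ranked 23687 to 35369 without IL-2 and 38699 to 44717 with it, a difference of -0.48. Neither pair of ranges overlapped. The 4 regions had p = 0.0286, the smallest possible (exact permutation test, two-sided, 4 against 4), and an adjusted p of 0.494, so none passed. The limit given above for this test holds here too. With limma 0 of 55 member regions passed ahead with IL-2 (0.172% of all) and 0 behind (0.0737% of all), with an adjusted p of 0.0586 for Ifit3. Ranked by fold, 1 member region was separated ahead with IL-2 and 2 behind. Of the 4 named here, Trim25 and Samd9l stayed separated by fold and Ifit3 and Oas2 did not.

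Within control cells the member starts ranked lower with IL-2, against the trend of all starts. These comparisons use the same control plus IL-2 libraries as the genotype comparison with IL-2, so the values are not separate evidence. IL-2 was ahead at 1 of 24 member starts (4.17%, against 19.4% of all), Dtx3l, and behind at 7 (29.2%, against 10.2% of all). The 7 were Rsad2, Xaf1, Bst2, Ifih1, Gbp3, Ifit3 and Isg15. The median difference was -0.19 for members and 0.14 for all. By fold IL-2 was ahead at 4 of 22 (18.2%, against 22.7% of all) and behind at 2 (9.09%, against 5.18% of all), so the count rests on the −log10 p scale. By listing 2 of 101 were higher (2.39% of all), at Ifih1 and Rtp4, and 5 were lower (2.51% of all), at Isg15, Ifit3, Gbp2, Usp18 and Rsad2.

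Within cDKO cells IL-2 was ahead at 9 of 24 member starts (37.5%, against 18.9% of all) and behind at 4 (16.7%, against 14.3% of all). By fold it was ahead at 5 of 22 (22.7%, against 16.2% of all) and behind at 3 (13.6%, against 10.4% of all). By listing 1 of 101 was higher (2.79% of all), outside Dhx58, and 1 was lower (2.94% of all), outside Usp18. The starts behind included Stat2, which carries the interferon signal to the nucleus, with ranks 395 and 716 in cDKO and 1269 and 749 in cDKO plus IL-2. In control cells Stat2 ranked 689 and 981 without IL-2 and 308 and 1261 with it. Those ranges overlapped.

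At Isg15, Usp18 and Gbp2 the best-ranked region lay outside the gene. That of Isg15 lay 1129 bp outside the gene at the start of Agrn (chr4:156197029-156198295) and ranked 13262 to 45599 in control and 18021 to 30115 in cDKO. That of Usp18 lay 1109 bp outside the gene (chr6:121272026-121272945), with ranks 10408 and 12911 in control, 16858 and 14058 in cDKO, 19008 and 19321 in control plus IL-2, and 8025 and 16722 in cDKO plus IL-2. Here cDKO was behind without IL-2 and ahead with it, unlike at the other end of the gene, where it was ahead in both arms. That of Gbp2 lay 1243 bp outside the gene (chr3:142618606-142619420) and ranked 29786 to 46137 in control and 25247 to 39127 in cDKO. At Oas1a, an oligoadenylate synthetase gene, no equal-number list held a region.

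Of the starts outside the 14, that of Trim25 had ranks of 7396 and 7384 in control, 4558 and 4163 in cDKO, 6681 and 13226 in control plus IL-2, and 5884 and 7485 in cDKO plus IL-2. It was ahead in cDKO without IL-2, by 0.76, and overlapped with IL-2. The start of Isg20, which encodes an RNA exonuclease, was the one behind in cDKO with IL-2, at 25125 and 24717 against 24709 and 20655. The nearest libraries, at 24717 and 24709, had almost the same rank. The start of Cmpk2, a nucleotide kinase gene that neighbours Rsad2, ranked 19213 to 28158 in control and 20575 to 24879 in cDKO. Unlike Rsad2 it overlapped in both arms. The start of Gbp2 ranked 36694 to 60042 in control and 33739 to 53603 in cDKO.

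Dtx3l and Parp9 lie next to each other and encode partners in a complex that enhances interferon signalling. The start region of Dtx3l also covers the lower-coordinate end of Parp9, and ranked 31410 and 21483 in control, 16901 and 19628 in cDKO, 20417 and 16311 in control plus IL-2, and 15990 and 14825 in cDKO plus IL-2. The cDKO libraries were ahead within each arm, but not over all 8. Mx2 had 1 listed region, at its lower-coordinate end, with ranks of 20601 to 29669 in control and 26266 to 32062 in cDKO. Unlike at Mx1, the genotypes overlapped there. At Parp14 the region at the higher-coordinate end ranked 22710 to 45463 in control and 25937 to 36086 in cDKO.

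Among the signal transducers and sensors, several starts held the same order in few comparisons. Irf9, a DNA-binding partner of STAT2, ranked 3702 and 2724 in control, 3370 and 3923 in cDKO, 5414 and 1661 in control plus IL-2, and 2433 and 2884 in cDKO plus IL-2. The replicates of control plus IL-2 were the highest and the lowest of the 8. Ddx58, the RIG-I gene, ranked 17377 to 33719 in control and 18344 to 26716 in cDKO. Ifih1, the MDA5 gene, had start ranks of 19754 and 15340 in control, 13093 and 15245 in cDKO, 20868 and 21216 in control plus IL-2, and 20091 and 18118 in cDKO plus IL-2. Both arms had cDKO ahead at Ifih1, by 0.30 and 0.14, but over 8 libraries the genotypes overlapped. Zbp1, a sensor of Z-form nucleic acid, had a region at its higher-coordinate end at ranks 13671 and 16620 in control, 16357 and 12187 in cDKO, 15037 and 10431 in control plus IL-2, and 12303 and 9302 in cDKO plus IL-2, and the genotypes overlapped.

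Other genes of the pathway were counted from 5 lists of 110 genes, all of which matched the gene table. The background for the listing counts is 0.706% higher and 1.12% lower in cDKO. By listing for genotype, interferon receptors, kinases and signal transducers had 1 of 87 regions higher in cDKO and 1 lower, both at Jak1. Sensors and adaptors had 1 of 72 higher, at Aim2, and 3 lower, at Ikbke, Tbk1 and Traf3. Other interferon-induced genes had 4 of 196 higher, at Epsti1, Ifitm3, Mov10 and Slfn8, and 1 lower, at Slfn5. GTPases and antigen presentation genes of the interferon-γ response had 0 of 75 in either direction, and interferon genes 0 of 13. At starts with IL-2, cDKO was ahead at 11 of 39 other interferon-induced genes' regions (28.2%) and behind at 5 (12.8%), ahead at 3 of 11 and behind at 0 in the interferon-γ list, ahead at 2 of 14 and behind at 4 for sensors and adaptors, and ahead at 2 of 11 and behind at 1 for receptors and kinases. The shares of all starts were 18.7% and 15.8%. Without IL-2, cDKO was ahead at 12 of the 39 other interferon-induced regions (30.8%) and behind at 6 (15.4%). In the interferon-γ list it was ahead at 3 of 11 and behind at 0. For sensors and adaptors it was 2 and 2 of 14, and for receptors and kinases 3 and 1 of 11. Shares of all starts without IL-2 were 25.6% and 13.1%. These lists thus gave no larger share ahead with IL-2 than without it.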

How the data were processed

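Per the submitters' processing notes, the tools were MACS2 2.2.7.1, Bowtie2 2.4.1, HOMER 4.11.1, Trimmomatic 0.39, DiffBind 2.10.0, Picard, ChIPseeker 1.18.0 and SAMtools 1.3.1, with build GRCm38 (mm10). Their roles, any pooling and the treatment of read shifting, duplicates and multiply mapping reads were not stated. Peaks of near-identical family members (Ifit, Oas, Gbp) are therefore less certain. The authors deposited 1 narrowPeak list per library. Each deposited peak has a fold over background (a ratio), a −log10 p-value, a −log10 q-value and a score, all of them the authors' own, and the score was not used. These values were used to order peaks inside 1 list, and fold is also printed, since a list holds no value for a region it lacks, so no count model was possible.

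Peaks were merged where they shared at least 1 bp, and each list was reduced to its 65811 peaks of highest −log10 p (Python 3.11.15, pandas 2.3.3, numpy 2.4.6). Calls were made over all regions. On 20000 simulated regions with 200 planted genotype differences, all 91 raised and all 38 lowered ones that every library of their stronger side listed were called the right way. The planted differences were large beside the simulated noise, so this checks the code and not the power in these data. Log2 ranks of regions in all 8 lists were also fitted with limma 3.58.1 (R 4.3.3), with genotype, IL-2 and their interaction and Benjamini-Hochberg adjustment over 40694 regions. Depth is unknown, so no floor or counting interval is given. Names follow a rule: every region called or separated over 8 libraries, up to 5 per direction in comparisons of 2 against 2 libraries, and the best region or start of chosen genes. The Samd9l start, the start order and the start examples by arm were chosen after values were seen. The gene table gives neither exons nor strand, so exon, intron and UTR were not analysed here. The members and lists were chosen with earlier results of these data known.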

Additional observations from a re-analysis of the deposited data

Results flagged for a closer look

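Of 36 sets of 4 libraries examined at named regions, 2 held a library far from the other 3 (Dixon's test at 95%), and chance gives about 1 in 20. At the Trim25 region outside the gene, replicate 2 of cDKO without IL-2 (rank 22455) stood apart from the other libraries without IL-2 (32698 to 34441), with a gap of 0.88 of the range in log2 rank. At the region inside Gbp7 the same library (rank 13220) stood apart from the other cDKO libraries (21188 to 22043), with a gap of 0.92. At the start of Xaf1 the IL-2 difference in log2 rank was -0.28 in control, where both libraries with IL-2 ranked behind, and 0.37 in cDKO, where both ranked ahead. With limma the difference between these was 0.65 ± 0.40 (SE, interaction, adjusted p = 0.997), so it did not pass. It was found at 1 of 24 member starts (4.17%) and at 3.69% of all starts. For genotype in the 2 arms, opposite orders were found at 0 of 24 member starts and at 2.87% of all.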

How the results depend on the processing

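Region counts are small and most depend on the settings. Ranked by fold, which was run only for the regions separated by rank over 8 libraries, none of these member regions turned its direction. With lists of 32905 peaks, a library left out or the deposited lists, no region called or separated could turn, given the calling rules. Those settings therefore do not check the direction of the 12 member regions called or separated. The labels do not say that a replicate number pairs libraries, and deviations of libraries with the same number correlated at -0.19 to 0.38 between groups, so they were not taken as pairs. With the replicate block, limma again called 0 of 55 member regions for genotype, IL-2 or their interaction. Over all regions the block changed the genotype calls from 643 ahead and 897 behind to 501 and 708, and the IL-2 calls from 70 and 30 to 1 and 2. For genotype, regions higher numbered 1 with lists of 32905 peaks and 2 under the looser call (3 of 4 libraries against at most 1). Regions lower numbered 0 with deposited lists, 1 with 32905 peaks and 1 where peaks had to cover 50% of a region. Separated regions with cDKO ahead numbered 2 with 32905 peaks and 2 by fold. Starts ahead numbered 1 at 50% cover (4.17%, against 4.8% of all) and 1 without chromosome 6 (4.35%, against 5.07% of all). For IL-2, regions higher numbered 2 under the looser call, regions lower 0 with deposited lists, 0 with 32905 peaks and 0 in gene bodies alone, and regions behind 0 with 32905 peaks. For genotype without IL-2, regions higher numbered 1 with deposited lists, 3 with 32905 peaks, 1 with 10 kb around genes and 2 at 50% cover, and regions lower 2 with deposited lists and 2 with 32905 peaks. With IL-2, regions higher numbered 3 with 32905 peaks and 3 in gene bodies alone, regions lower 1 with deposited lists, 2 with 32905 peaks and 3 at 50% cover, and starts ahead 6 by fold. For IL-2 in control, regions higher numbered 1 with deposited lists and 1 at 50% cover, regions lower 3 in gene bodies alone, and by fold starts ahead 4 and behind 2. For IL-2 in cDKO, regions higher numbered 2 with deposited lists, 0 with 32905 peaks, 0 in gene bodies alone, 2 with 10 kb and 0 at 50% cover, regions lower 2 with deposited lists, 0 in gene bodies alone and 3 at 50% cover, and starts ahead 5 by fold. Member regions per library numbered 129 in the deposited list of control replicate 1. With 32905 peaks they numbered 44 and 44 in control, 46 and 46 in cDKO, 42 and 41 in control plus IL-2, and 41 and 46 in cDKO plus IL-2. In gene bodies alone they numbered 52 in cDKO plus IL-2 replicate 2. The cause of these changes was not tested.

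Leaving out each library in turn eases the rules, since fewer libraries must concur. For genotype, regions higher then ran from 0 to 1, lower 3 to 4, separated ahead 4 to 8 and behind 0 to 2. Of 24 starts, 2 to 4 were ahead (6.64% to 10.7% of all starts) and 0 to 0 behind (3.36% to 6.01% of all). For IL-2, regions higher ran from 0 to 1, lower 1 to 1, separated ahead 1 to 3 and behind 3 to 6. Starts ahead ran from 0 to 2 (3.22% to 5.85% of all starts) and behind from 0 to 2 (1.29% to 2.18% of all). For genotype without IL-2, regions higher ran from 1 to 5, lower 5 to 9, starts ahead 8 to 13 and behind 2 to 7. Of all starts, 35.4% to 50.4% were then ahead and 20.8% to 33.8% behind, against 33.3% to 54.2% and 8.33% to 29.2% of the 24. With IL-2, regions higher ran from 6 to 9, lower 5 to 9, starts ahead 15 to 18 and behind 1 to 5. Of all starts, 29.3% to 42.5% were then ahead and 24.7% to 44.8% behind, against 62.5% to 75% and 4.17% to 20.8% of the 24. For IL-2 in control, regions higher ran from 2 to 7, lower 7 to 9, starts ahead 2 to 6 and behind 9 to 13. Of all starts, 28.4% to 52.4% were then ahead and 20.4% to 24.6% behind, against 8.33% to 25% and 37.5% to 54.2% of the 24. For IL-2 in cDKO, regions higher ran from 3 to 4, lower 2 to 5, starts ahead 10 to 13 and behind 4 to 8. Of all starts, 30.2% to 40.3% were then ahead and 26.1% to 33.3% behind, against 41.7% to 54.2% and 16.7% to 33.3% of the 24. Shares of all regions are not given for these settings, so the region counts are not read against a background. Settings with starts were chosen after seeing the data.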
